A study of Homo sapiens with 4 samples.

Results

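Glutathione transferases (GSTs), thioredoxins, peroxiredoxins and the genes of the NRF2 pathway were compared between COLO-320DM and 320-IWR cells on 4 GeneChip Human Genome U133 Plus 2.0 arrays. The genes were taken as a list of 41 symbols, chosen with earlier results of these data known. Shares given for the list beside those of all genes are therefore descriptions. Of the 41 symbols, 40 had at least 1 probe set annotated to that symbol alone. These 40 genes had 74 probe sets among 54613 probe sets and 19775 genes on the array. PRDX5 was not analysed here. COLO-320DM is a line of human colorectal cancer cells, and 320-IWR is the subline that had been selected from it by continuous culture with the tankyrase inhibitor IWR-1. RNA was taken from 2 samples of each line at near confluency. The text of the study does not say whether IWR-1 was present when the 320-IWR cells were harvested, and it does not describe 320-IWR as a clone. Whether the samples of a line came from separate cultures is not stated, so the tests rest on array-to-array variation that may be purely technical.

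GSTs couple glutathione, the main small thiol of the cell, to electrophilic compounds, drugs included. Thioredoxins and peroxiredoxins form a parallel system in which peroxides are reduced with electrons that thioredoxin reductase takes from NADPH. Many of these genes are induced by NRF2, a transcription factor encoded by NFE2L2. KEAP1 holds NRF2 in the cytoplasm and promotes its degradation until oxidants or electrophiles modify KEAP1. NRF2 then binds the antioxidant response element as a heterodimer with a small MAF protein.

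Of 9 measured epithelial markers, 6 had a mean intensity above 64. The summed intensity of all 9 lay between 5305 and 5469 in COLO-320DM cells and between 3573 and 3686 in 320-IWR cells. The intestinal factor CDX2 was bright on every array (2723 to 3403) and made up most of these sums. The keratin genes KRT8 and KRT18 fell (log2 fold changes -2.26 and -1.67, adjusted p = 0.0155 and 0.0322 by limma) and KRT20 rose (1.78, adjusted p = 0.0412), while the epithelial adhesion genes CDH1 (16.2 to 18.8) and EPCAM (13.5 to 35.1) were dim. The part of these epithelial differences in the results below was not tested. None of 5 neuroendocrine markers exceeded 64, and 1 of 4 leukocyte markers (PTPRC), 1 of 4 endothelial markers (PECAM1) and 2 of 5 fibroblast markers did. The fibroblast collagen COL3A1 had 292 and 1193 in replicates 1 and 2 of COLO-320DM, against 278 and 1187 in those of 320-IWR. The arrays of a line therefore differed in this gene about equally in both lines, and it did not separate the lines. The distance of a value above background is unknown, because no detection calls come with the intensities.

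The antioxidant response element was searched by its core letters TGACNNNGC on both strands of the promoter windows of RefSeq (GRCh38.p14, 250 bases before to 50 after a start). Windows were found for 34 of the 41 genes, and 9 of the 34 held a match (26.5%), against 16.1% of all 27305 genes with a window. The share of single windows was 20.4% for these genes and 13.3% for all. Windows of 3 NRF2 targets are shown because their transcripts are described below, with the match in capitals and up to 26 bases on each side before the start. GSTP1 encodes the pi class GST, TXNRD1 the cytosolic thioredoxin reductase and GCLM the modifier subunit of the first enzyme of glutathione synthesis. TXNRD1 had a match before each of its listed starts. The capitals of GCLM and of the second TXNRD1 window show the core on the opposite strand.
GSTP1, chr11:67583720-67583780, plus strand: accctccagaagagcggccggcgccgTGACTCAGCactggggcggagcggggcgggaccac
TXNRD1, chr12:104215654-104215714, plus strand: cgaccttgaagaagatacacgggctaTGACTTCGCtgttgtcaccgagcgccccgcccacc
TXNRD1, chr12:104286904-104286964, plus strand: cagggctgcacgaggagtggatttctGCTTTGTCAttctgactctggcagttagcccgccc
GCLM, chr1:93909431-93909490, minus strand: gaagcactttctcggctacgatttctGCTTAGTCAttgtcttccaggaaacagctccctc

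The neighbouring mu class genes GSTM1 and GSTM5 also held a match, and their windows were chosen for printing after their values had been seen. They are shown because the promoters are alike while the log2 fold changes of these genes, described below, were -0.96 and 0.09. GSTM5 was dim, and the GSTM1 probe sets can hybridize with related transcripts, so this contrast is uncertain. The test of the difference between the genes was not made. Over these 61 bases, 57 were identical. No match was found in the windows of GSTM2, GSTM3, GSTM4, NQO1, SRXN1 or NFE2L2, and KEAP1 had 2. A match is not evidence of binding, and its absence covers only these windows.
GSTM1, chr1:109687626-109687686, plus strand: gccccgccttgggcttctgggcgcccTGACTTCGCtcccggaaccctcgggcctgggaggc
GSTM5, chr1:109712066-109712126, plus strand: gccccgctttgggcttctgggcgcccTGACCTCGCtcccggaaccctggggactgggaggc

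The largest differences between the lines among the 40 genes were in probe sets of the mu class GSTs. The brightest probe sets of GSTM1, GSTM2, GSTM3 and GSTM4 were lower in 320-IWR cells, by 1.94- to 2.64-fold. All of these end in _x_at or _s_at and can hybridize with related transcripts, so the 4 genes may not be 4 separate differences. With such probe sets dropped, only a dim GSTM3 probe set is left of these genes (log2 fold change -0.27, unadjusted p above 0.05). GSTM5 was dim and its lines overlapped. Outside this class, the glutathione synthetase gene GSS, the peroxiredoxin gene PRDX4 and GSTCD were lower, and NFE2L2, the mitochondrial glutaredoxin gene GLRX2 and the kappa class gene GSTK1 were higher. None of these passed the test over all probe sets in the fit with cell line as its only term. A call required 2-fold or more together with an adjusted p (limma, Benjamini-Hochberg) under 0.05. Of the 74 probe sets 0 were called, against 0.112% called higher and 0.258% called lower among all probe sets. A 2-fold difference was reached by 3 of the 74, those of GSTM2, GSTM3 and GSTM4, all lower, against 0.586% higher and 1.36% lower among all probe sets. At an unadjusted p under 0.05 there were 14 (18.9%, against 9.71% of all probe sets), of which 10 were lower and 4 higher. With each gene represented by its brightest probe set, 10 of 40 genes had an unadjusted p under 0.05 (25%), 7 lower and 3 higher. Among all genes this share was 12.3%, 6.36% lower and 5.91% higher. The median log2 fold change was 0.05 over the 40 genes and 0.02 over all genes, with 22 of the 40 above 0. Both 320-IWR arrays lay above both COLO-320DM arrays in 10 of the 40 genes and below them in 9, against 21% and 17.5% of all genes.

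**Figure D1:**
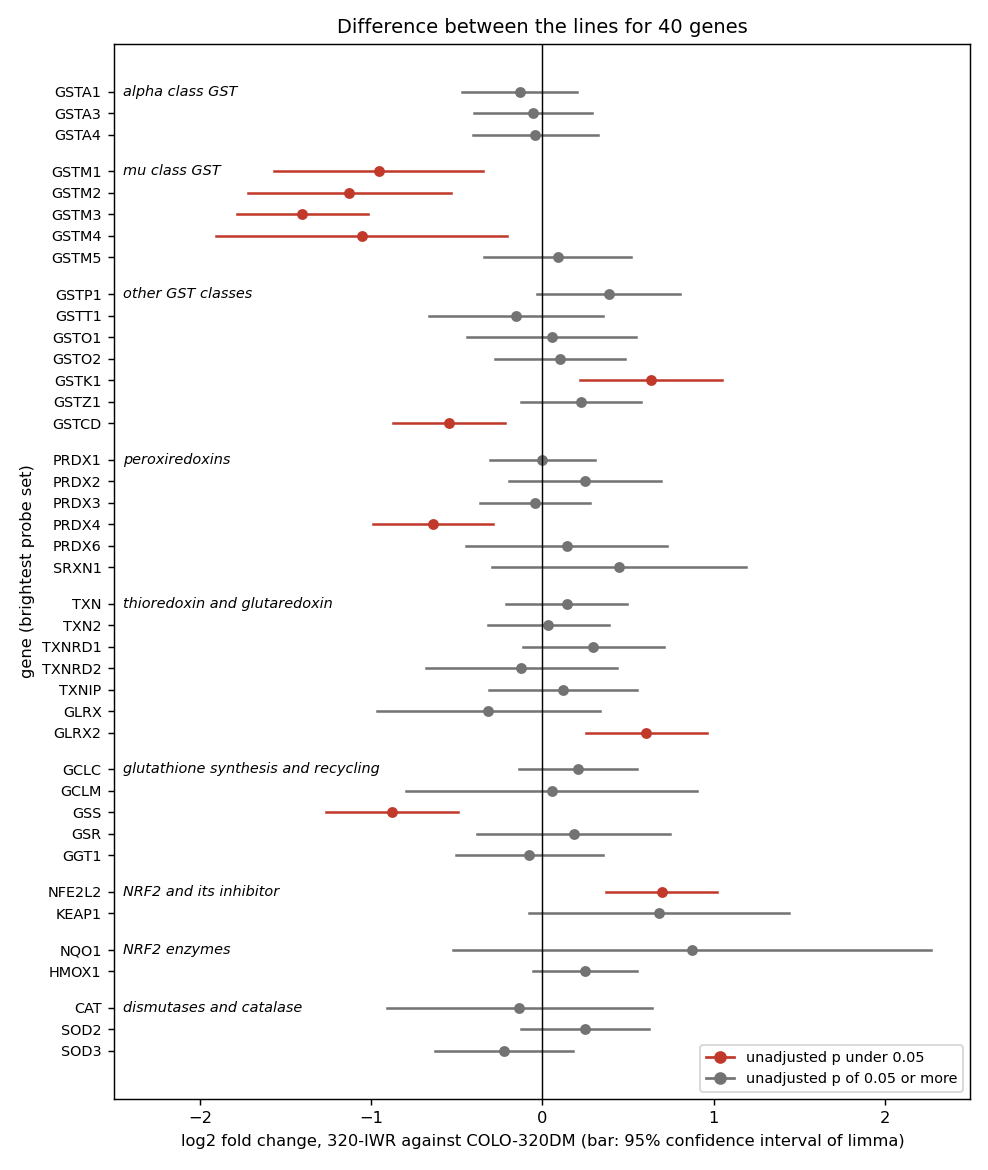
Log2 fold change of 320-IWR against COLO-320DM for the brightest probe set of each of 40 genes, grouped by role. Points are the differences of mean log2 intensities, bars the 95% confidence intervals of limma, and red marks an unadjusted p under 0.05. The mu class genes GSTM1 to GSTM4 lie farthest to the left, and GSTM5, which was dim, lies at 0.09.

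GSTM3, whose product is abundant in testis and brain, gave the strongest signal of the 40 genes. Its brightest probe set had intensities of 954 and 813 in COLO-320DM cells and 353 and 314 in 320-IWR cells. The 320-IWR arrays lay below both COLO-320DM arrays, at a log2 fold change of -1.40 (standard error 0.15, adjusted p = 0.0593 by limma). The other GSTM3 probe set was dim, with intensities of 50.1 and 44.0 against 44.0 and 34.6 and a log2 fold change of -0.27. With the array medians made equal, the brighter probe set passed the test (adjusted p = 0.0481 by limma). It did not pass under cyclic loess (0.0620), without dim probe sets (0.0509) or with a trended robust prior (0.0654). Without each array in turn its log2 fold change lay between -1.52 and -1.29. A fit with the replicate number as a further term is described at the end.

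GSTM2, a mu class enzyme of muscle and other tissues, had intensities of 339 and 482 in COLO-320DM cells and 165 and 208 in 320-IWR cells. Its log2 fold change was -1.13 (standard error 0.23, adjusted p = 0.198 by limma). The groups did not overlap, and replicate 2 lay above replicate 1 in both lines. GSTM1, the mu class enzyme of liver, was measured by a pair of probe sets, with intensities of 276 and 382 against 145 and 194 in the brighter and of 275 and 321 against 172 and 185 in the other. Both GSTM1 probe sets were lower in 320-IWR cells, with log2 fold changes of -0.96 and -0.73 and adjusted p of 0.269 and 0.179 by limma.

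GSTM4 had 128 and 186 against 56.8 and 97.2 in its brighter probe set, and 89.2 and 103 against 60.1 and 57.0 in the other. Their log2 fold changes were -1.05 and -0.71 (adjusted p = 0.386 and 0.178 by limma), again without overlap of the lines. GSTM5, a mu class enzyme known from brain, was dim, at 52.7 and 51.3 against 62.7 and 48.7. Its lines overlapped, at a log2 fold change of 0.09 with a 95% confidence interval from -0.34 to 0.52. At such intensities the value says little about the transcript.

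The mu class genes are close paralogs, and the probe sets of GSTM1, GSTM2, GSTM4 and GSTM5 and the brighter one of GSTM3 end in _x_at or _s_at, which mark probes that can hybridize with related transcripts. How their signals divide among the paralogs is uncertain. On the chromosome the genes lie side by side in the order GSTM4, GSTM2, GSTM1, GSTM5, GSTM3 (gene table of GRCh38.p14). Of 10 measured genes flanking the cluster, 5 on each side, 7 were lower and 3 higher in 320-IWR cells, with a median log2 fold change of -0.06. None of the lower ones had an unadjusted p under 0.05, and GNAT2, a transducin gene, was higher (log2 fold change 0.72, adjusted p = 0.163 by limma). These flanks and those described below were chosen for inspection after the values of the 40 genes had been seen. The flanks of GLRX2 and GSTK1 were inspected as well and had median log2 fold changes of 0.06 and -0.02. In each of these sets 1 of 10 flanking genes was higher and 0 were lower at an unadjusted p under 0.05.

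**Figure D2:**
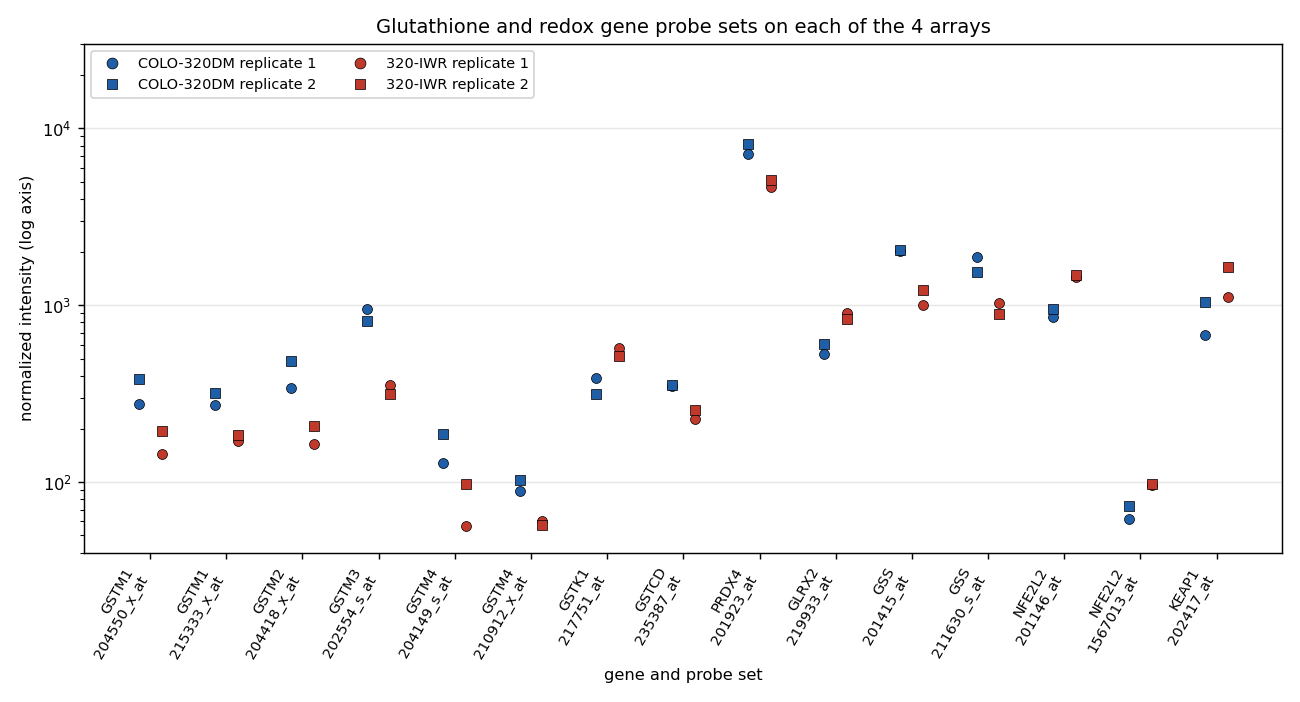
Normalized intensity, on a log axis, of the 15 probe sets described individually, with 1 point per array (blue COLO-320DM, red 320-IWR, circles replicate 1, squares replicate 2). The lines do not overlap in any of them, which the choice of 14 of them by p favours, so this is not a separate result. The 6 mu class probe sets and those of GSTCD, PRDX4 and GSS are lower in 320-IWR cells. An unadjusted p under 0.05 chose 14 of them, and KEAP1 was added as the inhibitor of NRF2.

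In the other GST classes, 1 gene was higher and 1 lower at an unadjusted p under 0.05. GSTK1, a mitochondrial and peroxisomal GST, had intensities of 390 and 315 in COLO-320DM cells and 576 and 514 in 320-IWR cells. Both 320-IWR arrays were higher, at a log2 fold change of 0.64 (standard error 0.16, adjusted p = 0.282 by limma). GSTP1, the dominant GST of many epithelial tumors, had 2194 and 2601 against 2871 and 3409. It was also higher on both 320-IWR arrays, but the 95% confidence interval of its log2 fold change of 0.39 ran from -0.03 to 0.81.

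GSTCD, which carries a GST C-terminal domain and whose function is little known, had 350 and 354 in its brightest probe set in COLO-320DM cells. In 320-IWR cells the values were 228 and 255 (log2 fold change -0.55, standard error 0.12, adjusted p = 0.242 by limma). Its other 2 probe sets were lower as well, at -0.45 and -0.30, without overlap of the lines. Of its 10 measured flanking genes 6 were lower. INTS12, on one side, had a log2 fold change of -0.47, and on the other side TBCK fell (-1.24, adjusted p = 0.0443 by limma), with GSTCD-AS1 (0.03) and NPNT (0.27) between GSTCD and TBCK.

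The alpha class genes GSTA1, GSTA3 and GSTA4, of which the first is the main GST of liver, had log2 fold changes between -0.13 and -0.04 in their brightest probe sets. GSTT1, GSTO1, GSTO2 and GSTZ1, of the theta, omega and zeta classes, had -0.15, 0.05, 0.10 and 0.23. In GSTZ1, which also acts in tyrosine breakdown, both 320-IWR arrays (223 and 260) lay above both COLO-320DM arrays (205 and 207), and in the other 3 the lines overlapped. GSTA1, GSTA3, GSTT1 and GSTO2 were dim, with no intensity above 49.6 in any probe set, so their differences say little about the transcript.

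Glutathione is made in 2 steps. GSS encodes glutathione synthetase, the enzyme of the final step. Its brighter probe set had intensities of 2019 and 2055 in COLO-320DM cells and 1004 and 1225 in 320-IWR cells. The other had 1881 and 1547 against 1024 and 895. Both were lower in 320-IWR cells without overlap, at log2 fold changes of -0.88 (standard error 0.15, adjusted p = 0.144 by limma) and -0.83 (standard error 0.16, adjusted p = 0.18).

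GCLC, the catalytic subunit of the first and rate-limiting step, had 546 and 582 against 694 and 609 in its brightest probe set. The log2 fold change was 0.21, with a 95% confidence interval from -0.14 to 0.55. The other probe sets of GCLC had 0.04 and, in a dim one, -0.30. The modifier subunit GCLM had 389 and 719 against 490 and 616 in its brightest probe set, with full overlap of the lines. Its log2 fold change was 0.06 (95% confidence interval from -0.79 to 0.91), and its other probe sets had -0.10 and -0.21. GSR, which regenerates glutathione from its disulfide, had 540 and 780 against 687 and 791 (log2 fold change 0.18). GGT1, which starts the breakdown of glutathione at the cell surface, was dim, between 34.2 and 43.4.

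Of the 10 measured genes around GSS, 8 were lower in 320-IWR cells, with a median log2 fold change of -0.31. The acetyl-CoA synthetase gene ACSS2, next to GSS, had a log2 fold change of -1.46 (adjusted p = 0.357), and TRPC4AP, on the other side, had -0.54 (adjusted p = 0.21 by limma). MYH7B, between GSS and TRPC4AP, was dim and had 0.00. What part the position of GSS has in its difference was not tested.

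Among the peroxiredoxins, which reduce hydrogen peroxide, only PRDX4 had an unadjusted p under 0.05. PRDX4, the peroxiredoxin of the endoplasmic reticulum, had intensities of 7138 and 8117 in COLO-320DM cells and 4685 and 5108 in 320-IWR cells. Both 320-IWR arrays were lower, at a log2 fold change of -0.64 (standard error 0.13, adjusted p = 0.21 by limma). The brightest probe sets of PRDX1 (cytosolic), PRDX2 (cytosolic), PRDX3 (mitochondrial) and PRDX6 had 0.00, 0.25, -0.05 and 0.14, with overlap of the lines. The other probe sets of PRDX2 had 0.27 and 0.21, higher in 320-IWR cells without overlap, and 0.05 with overlap. The 95% confidence intervals of PRDX1 and PRDX3 ran from -0.31 to 0.30 and from -0.37 to 0.28. The test of the difference between PRDX4 and these genes was not made.

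PRDX4 lies on the X chromosome, and 4 of its 10 flanking genes were lower at an unadjusted p under 0.05 while none was higher. They were ACOT9, SAT1, APOO and KLHL15, on the same side of PRDX4, with log2 fold changes of -0.85, -0.96, -0.46 and -0.74. Of all genes 6.36% were lower and 5.91% higher at that limit. The 5 genes on the other side were dim and had values between -0.16 and 0.30. The part of this neighbourhood in the difference of PRDX4 was not tested.

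SRXN1 encodes sulfiredoxin, which repairs overoxidized peroxiredoxins and is an NRF2 target. It had 624 and 1018 in COLO-320DM cells and 950 and 1242 in 320-IWR cells, at a log2 fold change of 0.45 (95% confidence interval from -0.29 to 1.19). The lines overlapped because the arrays of each line were far apart.

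In the thioredoxin and glutaredoxin group, GLRX2 was the gene with an unadjusted p under 0.05. Its intensities were 531 and 607 in COLO-320DM cells and 901 and 831 in 320-IWR cells, at a log2 fold change of 0.61 (standard error 0.14, adjusted p = 0.228 by limma). The cytosolic glutaredoxin gene GLRX pointed the other way in both of its probe sets, at -0.32 and -0.44, with overlap of the lines.

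TXN, the cytosolic thioredoxin, had 6421 and 5683 against 7017 and 6325 (log2 fold change 0.14), and its mitochondrial counterpart TXN2 had a log2 fold change of 0.03. TXNRD1 had 3001 and 3800 against 4175 and 4130. Both 320-IWR arrays were higher, but the 95% confidence interval of the log2 fold change of 0.30 ran from -0.11 to 0.71. TXNRD2, the mitochondrial reductase, and TXNIP, the inhibitor of thioredoxin, had -0.12 and 0.12, with overlap.

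In the NRF2 switch itself, NFE2L2 was higher in 320-IWR cells at an unadjusted p under 0.05. KEAP1 did not reach that limit in the fit with cell line as its only term. The brightest probe set of NFE2L2 had intensities of 856 and 952 in COLO-320DM cells and 1452 and 1475 in 320-IWR cells. The log2 fold change was 0.70 (standard error 0.12, adjusted p = 0.163 by limma). A dimmer one had 61.6 and 72.9 against 96.3 and 97.6 (0.53, adjusted p = 0.299), and the third had 0.12 with overlap of the lines. KEAP1 had 681 and 1037 against 1107 and 1637. Both 320-IWR arrays lay above both COLO-320DM arrays, at a log2 fold change of 0.68 with a 95% confidence interval from -0.08 to 1.44 (adjusted p = 0.581 by limma).

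Of 10 measured genes flanking NFE2L2, 7 were higher in 320-IWR cells and 3 lower. Among them 5 had an unadjusted p under 0.05 and were higher in 320-IWR cells, and none was lower at that limit. Of all genes 5.91% were higher and 6.36% lower at that limit. HOXD1, MTX2 and AGPS had log2 fold changes of 1.13, 0.55 and 0.80, IFT70B and PDE11A had 0.39 and 1.56, and the median of the flanks was 0.37. HNRNPA3, the nearest of the bright flanking genes, had 0.13. The part of this neighbourhood in the difference of NFE2L2 was not tested.

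**Figure D3:**
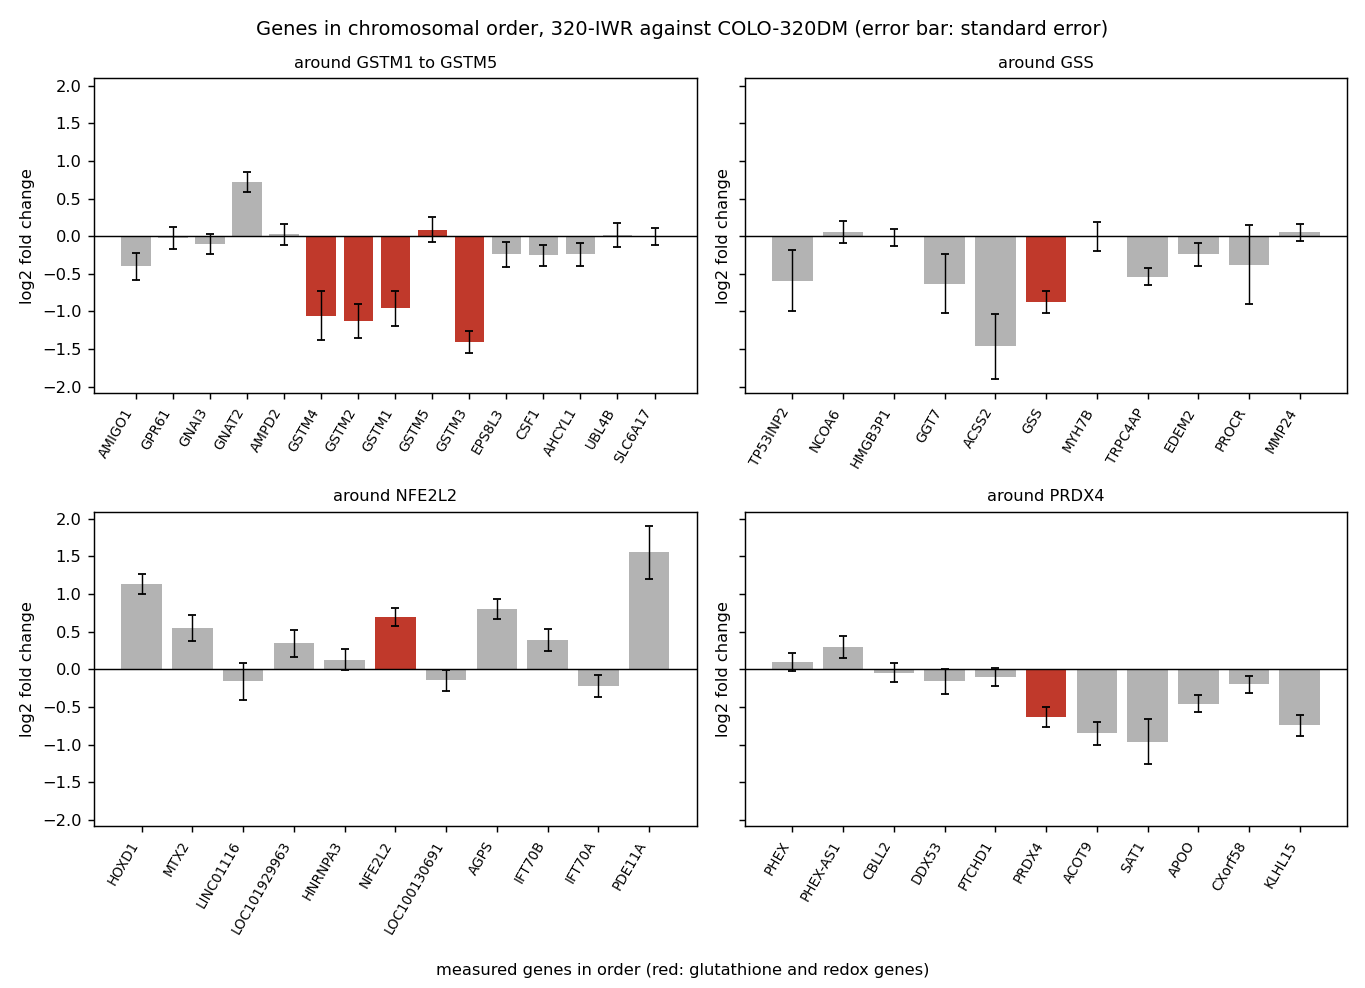
Log2 fold change of 320-IWR against COLO-320DM for genes in chromosomal order around the GSTM cluster, GSS, NFE2L2 and PRDX4, by the brightest probe set of each gene, with standard errors of limma. Red bars are the genes under study and grey bars their flanks, of which 5 measured genes are shown on each side. The flanks of the GSTM cluster have a median of -0.06, while those of NFE2L2 have a median of 0.37.

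Of the NRF2 target enzymes among the 40 genes, none was called in either direction. NQO1, a quinone reductase and a standard readout of NRF2 activity, had 326 and 818 in COLO-320DM cells and 687 and 1307 in 320-IWR cells in its brightest probe set. Replicate 1 was below replicate 2 in both lines, so the lines overlapped, at a log2 fold change of 0.87 with a 95% confidence interval from -0.52 to 2.27. Between the arrays of replicate 1 the log2 difference was 1.07, and between those of replicate 2 it was 0.68. The other 2 probe sets of NQO1 gave 0.90 and 0.79. HMOX1, the heme oxygenase that NRF2 induces and BACH1 represses, was dim and had 35.2 and 35.1 against 40.9 and 42.9 (log2 fold change 0.25). Its 320-IWR arrays lay above those of COLO-320DM, with a 95% confidence interval from -0.05 to 0.55.

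The spread within the lines was wide for several of these genes. In 4 of the 40 genes, GSTM4, KEAP1, NQO1 and the catalase gene CAT, replicate 2 exceeded replicate 1 by at least 0.5 on the log2 scale in both lines, against 2.47% of all genes. In none of the 40 did it lie below replicate 1 by that much in both lines, against 2.26% of all genes. CAT had 2625 and 3904 against 2345 and 3621, with full overlap of the lines. COL3A1 differed between the replicates in the same direction, and its part in these values was not tested. The dismutase genes SOD2 and SOD3 had log2 fold changes of 0.25 and -0.23, and 4 further SOD2 probe sets with several gene symbols were not used.

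**Figure D4:**
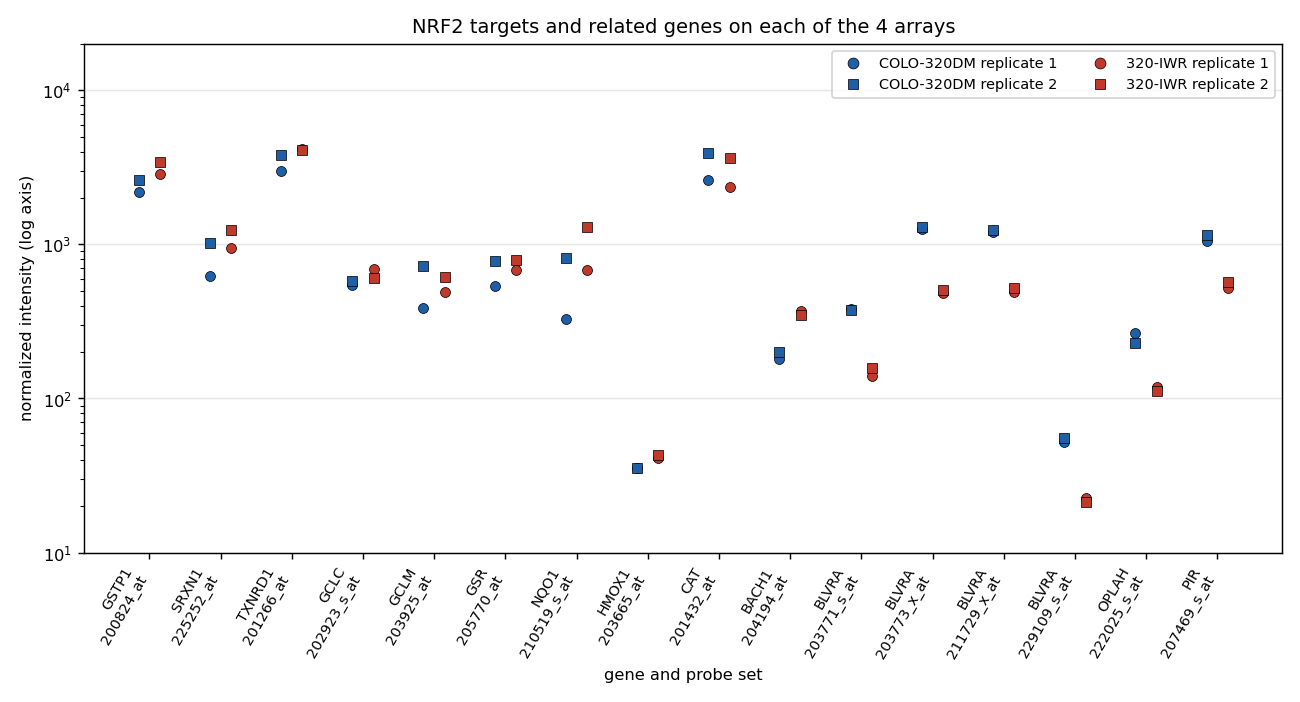
Normalized intensity, on a log axis, of NRF2 targets and related genes, with 1 point per array (blue COLO-320DM, red 320-IWR, circles replicate 1, squares replicate 2). In NQO1, SRXN1, GCLM, GSR and CAT the COLO-320DM arrays are farther apart than the means of the lines, whereas the 4 called BLVRA probe sets are lower in 320-IWR cells with little spread.

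A wider list of the same pathways, 81 genes of which 72 were measured, gave 1 called gene. Among all 19775 genes by their brightest probe sets, 38 were called higher and 79 lower. BLVRA, which encodes biliverdin reductase A and acts after heme oxygenase, fell in 320-IWR cells. Its brightest probe set had 1265 and 1298 in COLO-320DM cells and 487 and 508 in 320-IWR cells. The log2 fold change was -1.37 (standard error 0.12, adjusted p = 0.0377 by limma), a 2.58-fold difference. Of its 5 probe sets 4 were called, with log2 fold changes from -1.37 to -1.28, and the fifth, at intensities of at most 27.1, had -0.41. The call was lost when any array was left out, with adjusted p from 0.18 to 0.324 and log2 fold changes from -1.40 to -1.33. Without either 320-IWR array 0 of all 54613 probe sets were called, so the loss there says nothing about BLVRA.

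Of the 72 genes, 9 were lower and 4 higher at an unadjusted p under 0.05 (18.1%, against 12.3% of all genes), and the median log2 fold change was -0.02. After BLVRA the lower ones were led by the 5-oxoprolinase gene OPLAH (268 and 230 against 119 and 111; log2 fold change -1.11, adjusted p = 0.0823), which returns 5-oxoproline to glutamate. PIR, an iron-binding NRF2 target, had 1053 and 1154 against 523 and 568 (-1.02, adjusted p = 0.0844 by limma). ETHE1, a mitochondrial persulfide dioxygenase, had -0.67 (adjusted p = 0.163).

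The higher ones were led by BACH1, which competes with NRF2 for the antioxidant response element, at 182 and 200 against 371 and 347 (log2 fold change 0.91, adjusted p = 0.103 by limma). Its other 2 probe sets, both dim, had 0.12 and -0.14. SOD1, the cytosolic superoxide dismutase, had 4346 and 3681 against 7392 and 6724 (0.82, adjusted p = 0.159), and the methionine sulfoxide reductase gene MSRA had 0.76 (adjusted p = 0.174 by limma). Of the 25 measured NRF2 targets in this list, 3 were lower and 0 higher at an unadjusted p under 0.05. This share of 12% was near the 12.3% of all genes. The log2 fold changes of these 25 genes lay between -1.37 and 0.29. NQO1, SRXN1 and the other NRF2 targets described above are not among them.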

How the data were processed

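Probe set intensities were used as the authors deposited them. Per the labels they were made with RMA (no version given), and the study's methods name GeneSpring GX for the normalization. They are on a linear scale, and log2 was taken with a floor of 1. Array medians were 41.8, 41.0, 41.6 and 41.1. The number of arrays, 2 per line, limits the precision.

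After 62 of 54675 probe sets were dropped as controls, limma 3.58.1 in R 4.3.3 was run on 54613 (lmFit and eBayes, cell line as the only term, constant prior with 2.78 degrees of freedom, no filter). P-values were adjusted over all probe sets by Benjamini-Hochberg, and a call needed an adjusted p under 0.05 and a 2-fold difference. The supplied annotation gives 41091 probe sets 1 symbol. Each gene is represented by its brightest probe set. Values on every array are given for probe sets with an unadjusted p under 0.05 or a 2-fold difference, and for NFE2L2 and KEAP1. Of the wider list, called genes and the 6 next by p are named. Genes described beyond this rule were chosen after their values were seen. The genes and lists were chosen with earlier results of these data known. The procedure was run on simulated data with independent noise on each array. In the deposited arrays the replicate differences correlated between the lines, so the simulation does not cover that feature. Alternatives were a replicate block, leaving out single arrays, cyclic loess, equal medians, keeping probe sets with a mean log2 of at least 6 in a line, a trended robust prior, other call rules, averaging over the probe sets of a gene, and dropping those with suffix _x_at or _s_at.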

Additional observations from a re-analysis of the deposited data

How the results depend on the processing

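None of the 74 probe sets of the 40 genes was called higher under any alternative run. The count of them called lower was 0 under cyclic loess, without dim probe sets and with a trended robust prior. It was 0 as well with suffixes _x_at and _s_at dropped, and with no fold limit. It was also 0 without each array in turn, which says little, since limma then called 0 of all 54613 probe sets without either 320-IWR array, and 63 and 58 without COLO-320DM replicates 1 and 2. It was 1 with equal array medians (GSTM3), and 3 by at least 2-fold with the arrays apart and no p (GSTM2, GSTM3 and GSTM4). With the replicate number as a replicate block it was 2 (GSTM3, adjusted p = 0.0296, and GSTM2, adjusted p = 0.045 by limma). In the paired fit 18 of the 40 genes (45%) had an unadjusted p under 0.05, against 23.7% of all genes. KEAP1, NQO1, SRXN1, GSTP1, HMOX1, PRDX2 and SOD2, all higher, and GLRX, lower, met this limit besides the 10 genes of the main fit. None of these added genes was called, and the smallest adjusted p among them was 0.0637 by limma, for KEAP1. Calls over all 54613 probe sets went from 202 to 576 (0.333% higher and 0.721% lower), and OPLAH and PIR passed as well. The differences between replicates 2 and 1 correlated between the lines at r = 0.661 over all probe sets and 0.836 over the 40 genes (descriptions, since these are not independent), but the labels do not say that a number marks a shared batch. The count of 10 genes at an unadjusted p under 0.05 became 6 of 32 when these suffixes were dropped (11.8% of all genes), where GSTM1, GSTM2 and GSTM4 have none left and GSTM3 keeps its dim probe set (log2 fold change -0.27). No mu class gene is then among the 6. The count lay between 8 and 11 without each array. GSTM4 and GSTK1 missed that limit without COLO-320DM replicate 2 or 320-IWR replicate 1 (log2 fold changes -0.78 and -0.67, and 0.48 and 0.55), and GSTM1 without 320-IWR replicate 1 (-0.75). Without COLO-320DM replicate 2, NQO1, KEAP1 and SRXN1 met it (log2 fold changes 1.54, 0.98 and 0.80), and KEAP1 also without 320-IWR replicate 1 (0.96). Without COLO-320DM replicate 1 the same genes had 0.21, 0.38 and 0.09, and without 320-IWR replicate 2 they had 0.41, 0.40 and 0.25. The median log2 fold change of the 40 genes lay between -0.0067 and 0.095 without each array. None of the 22 probe sets of the studied genes and the wider list that were run under the alternatives changed sign. Markers and flanking genes were not run. A line left with 1 array is assumed to vary like the other one. The causes of these shifts were not tested.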
